A study of Mus musculus with 9 samples.

Results

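Liver gene expression after a biomineralized insulin mixture (BI) was set against expression after plain insulin, in 3 arrays of each group, which are 6 of the 9 arrays in the series. The other 3 arrays came from untreated animals and entered the fit, where they shared one estimate of the spread. All animals were labelled as KKAy mice, an obese strain with type 2 diabetes, 8 weeks old, and the tissue was liver. The chow held 34% fat for every array except BI replicate 2, whose protocol is another one. Both treated groups received 100 µL of DMEM culture medium by intraperitoneal injection. The medium held 40 µg/mL of insulin in the insulin group. The BI group received the same total concentration, of which 11% was in the biomineralized form, so that both groups carried plain insulin and differed in a minor share of it. The labels describe this form as insulin modified by biomineralization in place and do not name the mineral. The first group is labelled as having no treatment, and the labels do not say whether it is the group that received DMEM alone. All 45037 probe sets other than the array's controls were compared, out of 45101. Weight is given to the 17547 whose mean over the 9 arrays was 7 or more on the log2 scale, here called bright, because the dimmer ones were measured with far wider error. The labels place 8 to 12 mice in a group and do not say whether an array held 1 animal or a pool. A p-value here therefore reflects how far these arrays differ from each other, and that spread may be technical. The fit also drew the spread of each probe set toward a value shared by all probe sets, dim ones included. For bright probe sets that varied little between arrays, this widened the standard errors and intervals.

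Insulin reaches the liver through its receptor, which phosphorylates the Irs adaptor proteins and, through PI3 kinase, activates Akt. Akt keeps the transcription factor Foxo1 out of the nucleus, so that genes of glucose production such as Pck1 and G6pc are less transcribed. The same signal favours lipid synthesis through the transcription factor Srebf1. Sterol synthesis, which Hmgcs1 feeds, is governed by the related factor Srebf2. In an insulin-resistant liver these arms can respond unequally. A liver sample also holds Kupffer cells (the resident macrophages), sinusoidal endothelium and stellate cells, whose RNA is measured together with that of the hepatocytes.

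The 12 hepatocyte markers had a mean log2 level of 14.42 to 14.56 on the insulin arrays and 14.40 to 14.60 on the BI arrays. Array medians lay between 6.12 and 6.30. Over bright probe sets, arrays of one group correlated at 0.971 to 0.978 and BI arrays with insulin arrays at 0.970 to 0.982. Arrays were thus no more alike within these groups than between them. The difference between the 3' and 5' control probe sets of Gapdh, a sign of RNA integrity, was 0.52 ± 0.04 for the insulin arrays and 0.36 ± 0.08 for the BI arrays (log2, mean ± SD, n = 3). Those Gapdh values did not overlap, whereas the same measure for Actb was 2.09 ± 0.12 with insulin and 2.01 ± 0.07 with BI and did overlap. The part of RNA integrity in the differences below was not tested. The growth protocol given for BI replicate 2 describes rats, and the array was kept in its labelled group.

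No gene passed the test between BI and plain insulin. Among the bright genes of smallest p, Hmgcs1, Id2, Pctp and Cyp2c39 were higher with BI, and Spats2l, Itga3 and Ifi44l were lower. Of the gene groups, 28 of 31 interferon-response genes, 16 of 16 macrophage markers and 17 of 18 endothelial markers were lower with BI on average, and 8 of 9 Cyp2c enzymes and 11 of 14 lipid droplet genes were higher. The genes of insulin signalling were split evenly, 15 of 30 on each side. With any 1 array left out, at least 26 interferon genes, 13 macrophage markers and 14 endothelial markers were lower, and at least 6 Cyp2c enzymes and 8 lipid droplet genes were higher. These are counts of signs, and of all 9559 bright genes 5320 were lower with BI. Among the 31 interferon genes, 1 (3.23%) had BI arrays that all lay below the insulin arrays. So did 3 of 16 macrophage markers (18.8%), 4 of 18 endothelial markers (22.2%) and 5.66% of all bright genes. BI arrays lay wholly above for 2 of 9 Cyp2c enzymes (22.2%), 3 of 14 lipid droplet genes (21.4%) and 4.29% of all bright genes.

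In numbers, limma called 0 of 45037 probe sets (0%) at an adjusted p of 0.05, and the smallest adjusted p was 0.0643. An unadjusted limma p under 0.05 was reached by 1821 probe sets (4.04%). The BI arrays lay wholly above or wholly below the insulin arrays for 4323 probe sets (9.6%). Among bright probe sets the unadjusted count was 241 (1.37%), and the smallest adjusted p was 0.640. Fitted without the dimmer probe sets, the unadjusted count was 678 (3.86%) and the adjusted count again 0. With all probe sets fitted, 1693 bright ones had arrays that did not overlap (9.65%), 794 with BI above and 899 with BI below. A difference of 2-fold or more was found for 68 bright probe sets (0.388%), and 25 of those had arrays that did not overlap. For each gene the brightest probe set was then taken. Of 9559 bright genes, BI arrays lay above the insulin arrays for 410 (4.29%) and below for 541 (5.66%), together 951 (9.95%). These shares are the background for the counts of members below, although they varied with level. At 12 and over, 53.7% of probe sets were higher with BI, with 5.54% wholly above and 3.57% wholly below. At 7 to 9 these shares were 46.8%, 4.18% and 5.37%. The median log2 difference of bright genes was -0.02, and 4239 of them (44.3%) were higher with BI.

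The precision depended on brightness. The distance from a difference to either end of its 95% interval had a median of 0.58 on the log2 scale at a level of 7 to 9, 0.45 at 9 to 12 and 0.39 at 12 and over. For the 27490 probe sets under 7 it was 1.69, and 6303 of these (22.9%) differed by 2-fold or more. A 2-fold difference between BI and insulin was thus outside the interval's usual width for bright genes and within it for dim ones.

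**Figure D1:**
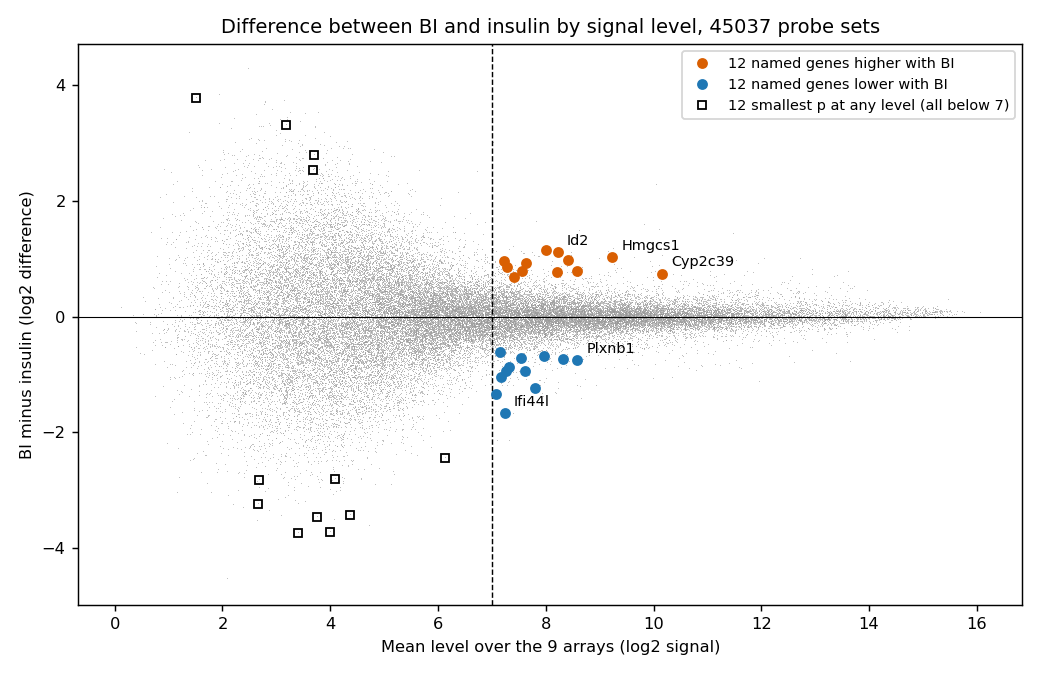
The log2 difference between BI and insulin (vertical axis, positive where BI is higher) of each of the 45037 probe sets is drawn against its mean log2 level over the 9 arrays (horizontal axis). The dashed line marks level 7, coloured points are the 24 genes named by rule, and open squares are the 12 probe sets of smallest p, which all lie to the left of that line where the cloud is widest.

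The bright genes named here are the 12 of smallest p in each direction among those whose BI and insulin arrays did not overlap. That rule fixes their separation, which is given as a description. Each had an adjusted limma p of 0.640 or more. Values are log2 signals in the order of replicates 1 to 3, and differences are BI minus insulin with the standard errors of the limma fit.

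Hmgcs1, the cytosolic HMG-CoA synthase at the entry to cholesterol synthesis, measured 8.53, 8.59 and 8.92 with insulin and 9.87, 9.30 and 9.96 with BI on the probe set that named it. The difference was 1.03 ± 0.28, or 2.04-fold (95% interval 0.38 to 1.68). Hmgcs1 had 4 bright probe sets, and on each of them the BI arrays lay above the insulin arrays, with differences from 0.75 to 1.44. On the brightest of these, insulin gave 11.47, 11.53 and 11.58 and BI gave 12.84, 11.71 and 12.99. BI replicate 2 was the lowest of the BI arrays on all 4, and on 3 of them it was near the insulin level. The untreated arrays measured 8.89, 9.37 and 9.68 on the first probe set, between the other 2 groups on average.

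Id2, an inhibitor of basic helix-loop-helix transcription factors, measured 7.83, 8.14 and 7.63 with insulin and 8.50, 9.40 and 9.02 with BI. Its difference was 1.11 ± 0.28, or 2.16-fold. Its other 2 bright probe sets, near a level of 13 and measured more tightly, gave 0.45 and 0.30, the first without overlap of the arrays. Pctp, which carries phosphatidylcholine between membranes, measured 6.79, 7.90 and 7.66 with insulin and 8.69, 8.43 and 8.65 with BI, a difference of 1.14 ± 0.33. The low value of insulin replicate 1 widened the insulin spread for Pctp. Cyp2c39, a cytochrome P450, measured 10.12, 9.95 and 10.19 with insulin and 10.71, 11.13 and 10.64 with BI, a difference of 0.74 ± 0.21. Its untreated arrays were the lowest of the 9, at 9.28, 9.57 and 9.78.

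Tlcd4, a membrane protein with a TLC lipid-sensing domain, had the tightest insulin values of these genes apart from Rhbdd3, at 8.13, 8.09 and 8.12 against 8.68, 8.93 and 9.12 with BI. The difference was 0.80 ± 0.20, and its 3 bright probe sets were all higher with BI without overlap, from 0.51 to 0.80. Smc4, a subunit of the condensin complex that compacts chromosomes, differed by 0.98 ± 0.28, with 7.78, 8.00 and 7.44 against 8.79, 8.68 and 8.69. Its untreated level (8.20, 9.14 and 8.93) was like that of BI on average, although untreated replicate 1 was nearer the insulin arrays. Of the other 2 bright probe sets of Smc4, 1 was also apart (0.36 and 0.26). Aplp2, a relative of the amyloid precursor protein, differed by 0.77 on the probe set that named it and by 0.09 to 0.27 on its 4 other bright probe sets. The remaining genes on this side were Plekhg3 (0.92), Ppp2r3a, a regulatory subunit of protein phosphatase 2A (0.78), Proca1 (0.68), the rhomboid-like Rhbdd3 (0.96) and the HSP110-family chaperone Hspa4l (0.86). For Rhbdd3 and Hspa4l the other bright probe sets lay near 0, at 0.06 and -0.04 for Rhbdd3 and from -0.04 to 0.18 for Hspa4l.

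Spats2l had the smallest p of the 24 genes (limma adjusted p 0.640). It measured 7.84, 7.42 and 7.89 with insulin and 6.60, 6.16 and 6.36 with BI, a difference of -1.34 ± 0.26 (95% interval -1.96 to -0.73). Its other bright probe set gave -0.49, also without overlap. Itga3, the alpha subunit of a laminin-binding integrin, measured 8.50, 8.48 and 8.05 with insulin and 7.49, 6.61 and 7.23 with BI, a difference of -1.23 ± 0.27. Agpat5, an acyltransferase on the route to phosphatidic acid, varied little within either treated group, with 7.48, 7.57 and 7.65 against 6.65, 6.54 and 6.71. Its untreated arrays varied more, at 7.22, 7.93 and 7.60. Agpat5 differed by -0.93 ± 0.21 on that probe set and by -0.28, with overlapping arrays, on its other bright probe set.

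Plxnb1, a semaphorin receptor, measured 8.40, 8.80 and 8.75 with insulin and 8.04, 7.74 and 7.95 with BI, a difference of -0.75 ± 0.19. The untreated arrays were highest, at 9.02, 9.34 and 9.25, and the second bright probe set of Plxnb1 differed by only -0.12. Ikbip differed by -0.73 and by -0.35 on its 2 bright probe sets, both without overlap. Ifi44l, an interferon-induced gene, had the largest difference of the 24, -1.67 ± 0.47, and also the widest spread. Its insulin arrays measured 7.49, 9.17 and 8.08 and its BI arrays 7.24, 6.30 and 6.20, so that insulin replicate 1 and BI replicate 1 nearly met. On the other bright probe set of Ifi44l they crossed, and the difference was -1.15. The other genes of this side were Sbf1, a phosphatase-like protein without activity (-1.04), Clic5, an intracellular chloride channel protein (-0.93), N6amt1, a methyltransferase (-0.88), Ccser2 (-0.71), Rrp7a of ribosomal RNA processing (-0.69) and Dennd1b, a Rab exchange factor (-0.62). For Ccser2, 2 brighter probe sets gave 0.00 and 0.25.

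**Figure D2:**
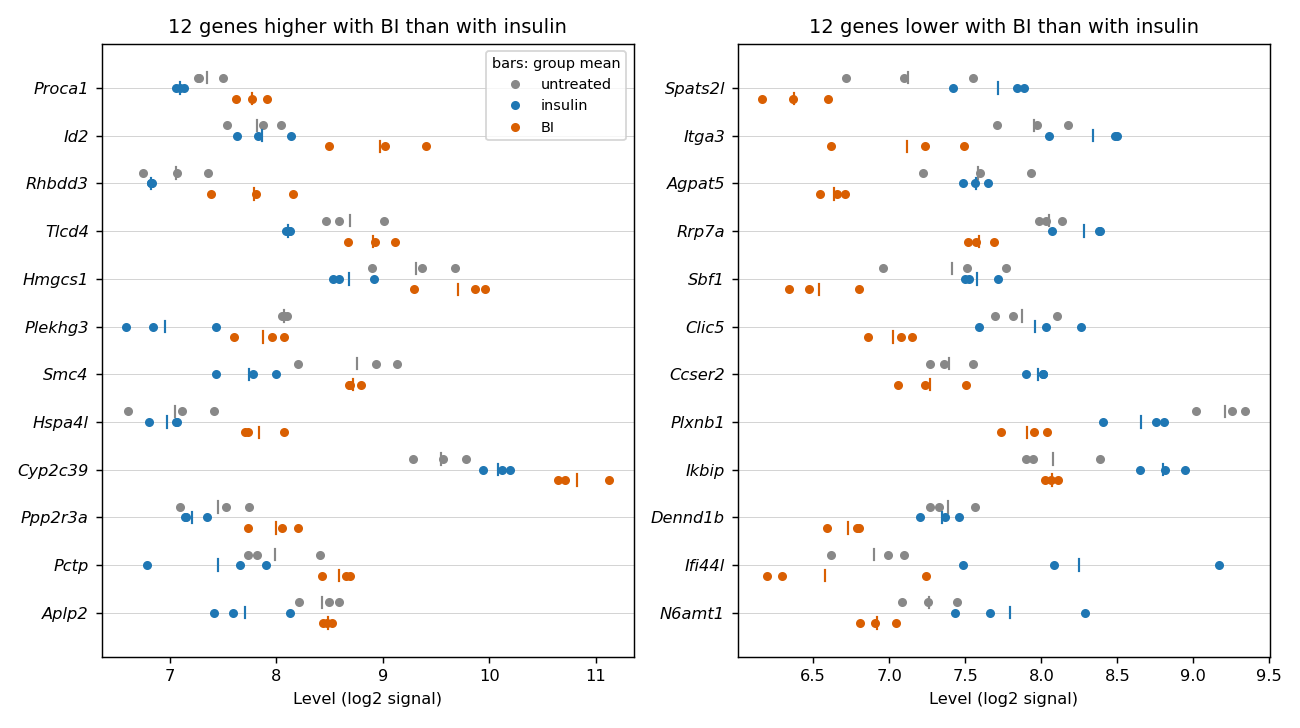
Log2 signal (horizontal axis) of the 24 named genes on each of the 9 arrays, with untreated in grey, insulin in blue and BI in orange, and with short bars at the group means. The BI and insulin points of a gene do not overlap, by the rule that chose them. The untreated mean lies near that of BI for Smc4. The untreated points lie with insulin for Id2 and outside both groups for Cyp2c39 and Plxnb1.

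Other probe sets give a second look at the same genes on the same arrays. Over the 24 genes, 15 had further bright probe sets, 28 in number. Of these, 24 had the sign of the probe set that named the gene, and for 9 the arrays were apart in the same direction. The 4 of opposite sign belonged to Rhbdd3, Hspa4l and Ccser2 only. Probe sets of one gene share RNA and are not independent of it.

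**Figure D3:**
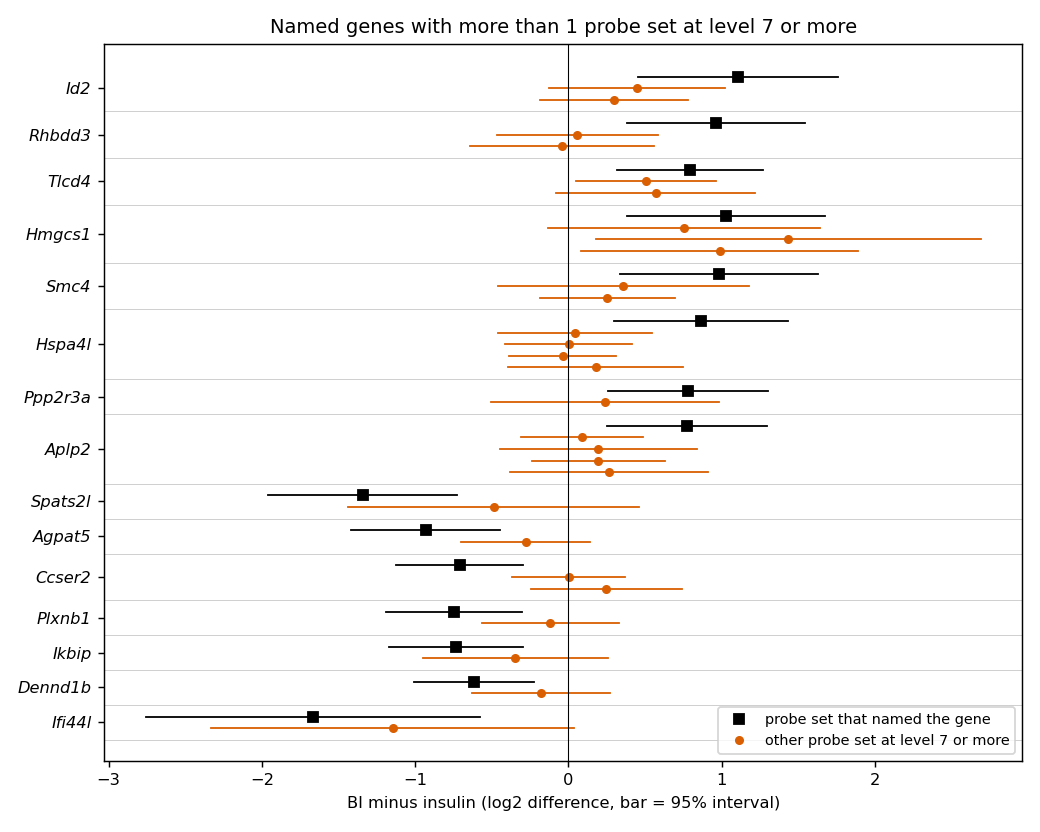
Log2 difference of BI minus insulin with its 95% interval (horizontal axis) for the 15 named genes that had more than 1 bright probe set. Black squares are the probe sets that named the genes and orange points their other bright probe sets, which keep most of the difference for Hmgcs1, Tlcd4 and Ifi44l and lie between -0.04 and 0.25 for Rhbdd3, Hspa4l and Ccser2.

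The same question was put to every gene with 2 or more bright probe sets, 3816 in number, a description chosen after values were seen. In 25 genes all of them had BI arrays above the insulin arrays and in 14 all had BI below, together 1.02%. The genes below were picked from these after values were seen, and they stand for no theme. Plin5, which coats lipid droplets at mitochondria, measured 9.60, 10.004 and 10.006 with insulin and 10.26, 10.57 and 10.32 with BI on one probe set, a difference of 0.51 ± 0.20, and differed by 0.45 on the other. Cd36, a fatty acid transporter, was apart on 3 probe sets, by 0.38 to 0.53. Vnn1, a pantetheinase and target of the fatty acid receptor Ppara, differed by 0.92 and 0.98, with insulin replicate 1 far below the other insulin arrays (10.94 against 12.11 and 12.04). Gpam, the mitochondrial glycerol-3-phosphate acyltransferase, and the peroxisomal Pex11a differed by a median of 0.32 each. Gclc, the catalytic subunit of the enzyme that limits glutathione synthesis, differed by 0.81 and 0.57, and the galectin Lgals1 by 1.05 and 0.88. The autophagy genes Gabarapl1 (0.52 and 0.37) and Map1lc3a (0.68 and 0.21) belonged here too. On the lower side stood the mitochondrial carrier Slc25a51, which imports NAD (3 probe sets, -0.51 to -0.34), Tfpi, an inhibitor of the coagulation pathway (-0.81 and -0.26), and Kynu, a kynureninase (-0.30 and -0.26), beside Spats2l and Ikbip.

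The lists that follow held 1224 entries in 48 groups, 37 of pathways and 11 of cell types. Of 1165 distinct genes, 1061 were measured and 875 were bright, and 0 passed the test. For each list the 2 bright members of smallest p were picked by rule, but not all of them are printed here. Other members are named for their place in a pathway, after values were seen. A list score is the mean over its bright members of each array's deviation from the member's mean over the 9 arrays. The medians of 10 lists, each within 0.05 of 0, took the other sign under quantile normalization or equal array medians. No direction is read from those medians. As single arrays were left out, the medians of 21 of the 44 lists with 3 or more bright members took the other sign at least once. All 21 lay within 0.17 of 0 with all arrays, and 23 medians kept their sign.

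The insulin pathway itself was near 0. Of 30 bright members 15 were higher with BI, with a median of -0.01, 1 member apart above and 1 below. The receptor gene Insr measured 11.27, 11.42 and 11.46 with insulin and 11.61, 11.70 and 11.52 with BI, a difference of 0.23 ± 0.16 (95% interval -0.15 to 0.61). Pik3r3, a regulatory subunit of PI3 kinase, measured 7.54, 7.48 and 7.23 with insulin and 7.20, 6.71 and 7.15 with BI, a difference of -0.39 ± 0.23. Neither passed, and each had arrays that did not overlap. Further along the pathway, Akt2 differed by -0.11 (-0.51 to 0.30), Foxo1 by 0.01 (-0.43 to 0.45) and the inhibitory adaptor Grb14 by 0.00 (-0.42 to 0.42). For these 3 genes a difference of 2-fold lay outside the interval.

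Genes of glucose production and Foxo1 targets had 6 of 17 bright members higher with BI and a median of -0.01, which became 0.01 with equal array medians. Pck1, which commits carbon to glucose, measured 14.40, 14.24 and 14.30 with insulin and 13.95, 14.02 and 13.75 with BI, a difference of -0.40 ± 0.18. Got1, a cytosolic aspartate aminotransferase, measured 11.30, 10.64 and 11.02 against 10.63, 10.28 and 10.11, a difference of -0.65 ± 0.25. Both had BI arrays wholly below the insulin arrays, although for Got1 the insulin replicate 2 and BI replicate 1 were level. Creb1 and Mdh1 were apart in the other direction. G6pc, the last enzyme of glucose release, overlapped widely, at 13.90, 13.33 and 13.05 against 13.23, 12.46 and 13.92. The list scores, which are means, did not overlap, at 0.10, 0.01 and -0.02 with insulin and -0.11, -0.12 and -0.04 with BI. Whether these scores stay apart under another scaling was not tested. Glucose uptake, glycolysis and glycogen genes had 9 of 21 higher and a median of -0.01, with the phosphofructokinase Pfkl at -0.47 ± 0.22 and the kinase Pdk2 at -0.30 ± 0.31.

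Lipogenesis genes were mixed, with 12 of 28 higher and a median of -0.05, which was 0.06 without insulin replicate 1 (21 of 28 higher) and -0.20 without insulin replicate 3 (7 of 28 higher). Mogat1, a monoacylglycerol acyltransferase, measured 10.53, 10.90 and 10.56 with insulin and 11.05, 11.42 and 11.06 with BI, a difference of 0.52 ± 0.26, and Pnpla3 differed by -0.81 ± 0.54. The insulin-responsive Srebf1 differed by 0.04 (-0.34 to 0.42) and Fasn, the fatty acid synthase, by -0.23 (-1.58 to 1.12). Fasn was measured at 13.57, 12.74 and 12.21 with insulin, so its spread within that group exceeded the difference. In cholesterol synthesis 9 of 18 genes were higher and the median was -0.00, and 3 genes were apart, all above (16.7%). They were Hmgcs1, Pmvk (0.81) and Fdft1 (0.26). Other enzymes of the pathway, such as Fdps (-0.19), Dhcr7 (-0.08) and Lss (-0.13), lay near 0, and Hsd17b7 was at -0.28 ± 0.22.

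Lipid droplet genes were higher with BI in 11 of 14 cases, with a median of 0.13, and 3 were apart above (21.4%). Fitm1, which partitions fat into droplets, measured 10.50, 10.55 and 10.06 with insulin and 10.82, 11.17 and 10.79 with BI, a difference of 0.55 ± 0.20. Plin4, a droplet coat protein, measured 7.49, 7.09 and 7.53 against 8.70, 9.04 and 7.65, a difference of 1.09 ± 0.44 that rested on BI replicates 1 and 2. Plin5 was the other. The scores did not overlap, at 0.06, -0.05 and -0.27 with insulin and 0.07, 0.20 and 0.10 with BI, although the highest insulin and lowest BI scores nearly met. The median was 0.08 without BI replicate 1. Plin2, the most abundant coat protein of hepatocyte droplets, differed by 0.11 (-0.25 to 0.48).

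Thioesterases and omega oxidation, a group with many Ppara targets, had 9 of 12 members higher and a median of 0.25. Acot1 measured 8.46, 9.41 and 9.79 with insulin and 9.86, 10.37 and 9.68 with BI, a difference of 0.75 ± 0.36 with overlapping arrays, and Aldh3a2 differed by 0.40 ± 0.20 without overlap. The widest gene was the omega hydroxylase Cyp4a14, at 12.46, 7.24 and 13.19 with BI and 7.34, 10.89 and 9.91 with insulin, and the scores of the list overlapped. Without insulin replicate 1 the median was 0.10. Fatty acid oxidation had 20 of 25 members higher but a median of 0.06 and 0 members apart, with Acadm at 0.13 ± 0.15 and Pdk4 at 0.39 ± 0.57. Its median was 0.02 without BI replicate 3 or insulin replicate 3. Under quantile normalization it was 0.01, with 16 of 25 higher. Fatty acid uptake had 8 of 12 higher and a median of 0.10, with 3 members apart above and 2 below. Fabp2 was among those above (0.40 ± 0.23), and Acsl4 (-0.36 ± 0.17) and Fabp4 (-0.77) were those below. The apolipoproteins had 14 of 19 higher and a median of 0.07, with Apoa4 and Apoa5 each at 0.18. Without BI replicate 3 the median of the uptake genes was 0.04 and that of the apolipoproteins also 0.04. Under quantile normalization the apolipoprotein median was 0.02, with 10 of 19 higher.

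Of the Cyp2c enzymes, cytochromes P450 that oxidise drugs, fatty acids and retinoids, 8 of 9 bright members were higher with BI, with a median of 0.26, and 2 were apart above (22.2%). Cyp2c38 measured 9.24, 9.40 and 8.80 with insulin and 9.70, 9.90 and 9.94 with BI, a difference of 0.70 ± 0.28. It was lowest on the untreated arrays, at 8.40, 7.69 and 8.62, as Cyp2c39 was. The exception was Cyp2c55, at -0.63 (-1.39 to 0.13). Members at the top of the scale such as Cyp2c29 (0.08) and Cyp2c70 (0.02) were near 0. The median was 0.09 without BI replicate 2 and 0.12 without insulin replicate 3. These genes lie close together in sequence, and probe sets of the family can share signal. Other P450 and phase II enzymes had 23 of 31 higher, a median of 0.08 and 0 apart, with Aox1 at 0.40 ± 0.25 and Ces1g at 0.52 ± 0.38. Their median ran from 0.04 without BI replicate 2 to 0.13 without BI replicate 1.

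In the bile acid group 13 of 23 genes were higher and the median was 0.03. Cyp7a1, the rate-limiting enzyme of bile acid synthesis, measured 11.71, 12.14 and 11.31 with insulin and 10.76, 10.82 and 10.91 with BI, a difference of -0.89 ± 0.40 with no overlap. Its untreated arrays ranged from 11.49 to 13.06. Amacr differed by 0.87 ± 0.51, and BI replicate 1 measured 12.77 against 10.82 and 10.84 on the other BI arrays. The bile acid median ran from 0.002 without BI replicate 3 to 0.12 without BI replicate 1. Among targets of Nrf2, which governs defence against oxidants, 17 of 27 were higher with a median of 0.03, which was 0.003 without BI replicate 2 and 0.10 without BI replicate 1. All 5 that were apart (18.5%) were above, namely the exporter Abcc3 (0.54 ± 0.18), Gclc (0.81 ± 0.33), Gclm (0.25), Nqo1 (0.26) and Cat (0.15). The metallothionein Mt1, in contrast, ranged from 11.97 to 14.89 within the insulin group alone.

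Genes of protein folding in the endoplasmic reticulum had 22 of 35 members higher with BI, a median of 0.08, and 5 apart above (14.3%). Without BI replicate 2 the median was -0.05 with 16 of 35 higher, and without insulin replicate 2 it was 0.01. Pdia4, a disulfide isomerase, measured 11.21, 11.36 and 11.47 with insulin and 11.75, 11.84 and 11.76 with BI, a difference of 0.44 ± 0.16, and Pdia3 differed by 0.30 ± 0.14. Sdf2l1 (0.60), Hspb1 (0.38) and Dnajc3 (0.22) were the others, while the stress factor Ddit3 was at 0.08 (-0.63 to 0.78). In iron handling 12 of 18 were higher, with a median of 0.09 (0.03 without insulin replicate 1) and 3 apart above. Hjv, a co-receptor needed for hepcidin expression, measured 10.45, 10.94 and 10.66 with insulin and 11.30, 11.04 and 11.31 with BI, a difference of 0.53 ± 0.18. The iron exporter Slc40a1 differed by 0.29 ± 0.17 and hepcidin itself, Hamp, by 0.49 (-1.73 to 2.70).

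Interferon-response genes had the lowest median of the 44 lists with 3 or more bright members. Of 31 bright members 28 were lower with BI, and the median was -0.60. By rule the list names 2 GTPases that act against intracellular pathogens. Irgm2 measured 11.46, 11.83 and 11.93 with insulin and 11.42, 11.14 and 10.14 with BI, a difference of -0.84 ± 0.36, and was the 1 member whose arrays did not overlap (3.23%). Igtp measured 11.93, 12.68 and 12.61 with insulin and 12.14, 11.54 and 11.08 with BI, a difference of -0.82 ± 0.32. Ifit1, an interferon-induced RNA-binding protein, measured 7.57, 10.12 and 8.79 with insulin and 9.53, 7.13 and 6.61 with BI. It shows the order of the whole list, which was low on insulin replicate 1 and high on BI replicate 1. The list scores overlapped, at -0.24, 0.95 and 0.55 with insulin, 0.55, -0.36 and -0.79 with BI and -0.11, -0.24 and -0.32 in the untreated group. The spread within each treated group was thus wider than the distance between their means. The median was -1.03 without BI replicate 1, -0.32 without BI replicate 3, -0.87 without insulin replicate 1 and -0.34 without insulin replicate 2. Irf1, which drives many of the genes, differed by 0.06, and Iigp1 (0.19) and Eif2ak2 (0.02) were the other members above 0.

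Interferon signalling acts on DNA through the interferon-stimulated response element, whose core reads TTTC, any 2 bases and TTTC again, and GAAA, any 2 bases and GAAA on the other strand. The 250 bases before the start of transcription were searched for it on both strands, in the RefSeq promoter table (GRCm38.p6), which held 24 of the 31 genes. The motif was found in 10 of the 24 (41.7%), against 253 of 7848 bright genes (3.22%) and 936 of all 27025 genes of the table (3.46%). The list was made of known interferon-response genes, and its bright members were searched whatever their difference. The share therefore describes the list and says nothing on BI against insulin. A match describes the letters and not bound protein. Windows of the 2 genes named by rule and of Ifit1, which was picked after values were seen, are shown. All 3 hold the motif, unlike most of the 24 genes. They are written 5′ to 3′ along the gene, the match is in capitals, and all 3 lie on the + strand. Igtp is at chr11:58199306-58199555, Irgm2 at chr11:58214727-58214976 and Ifit1 at chr19:34640639-34640888.
Igtp: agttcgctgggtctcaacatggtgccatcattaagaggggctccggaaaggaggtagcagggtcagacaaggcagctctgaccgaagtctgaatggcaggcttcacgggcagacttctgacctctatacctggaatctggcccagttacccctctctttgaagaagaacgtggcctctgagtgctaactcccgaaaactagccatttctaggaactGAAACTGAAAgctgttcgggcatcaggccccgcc
Irgm2: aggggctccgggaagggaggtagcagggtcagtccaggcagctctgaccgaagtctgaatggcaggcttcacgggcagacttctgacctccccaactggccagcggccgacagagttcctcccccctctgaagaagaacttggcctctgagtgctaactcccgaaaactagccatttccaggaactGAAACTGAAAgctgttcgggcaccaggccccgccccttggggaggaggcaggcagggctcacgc
Ifit1: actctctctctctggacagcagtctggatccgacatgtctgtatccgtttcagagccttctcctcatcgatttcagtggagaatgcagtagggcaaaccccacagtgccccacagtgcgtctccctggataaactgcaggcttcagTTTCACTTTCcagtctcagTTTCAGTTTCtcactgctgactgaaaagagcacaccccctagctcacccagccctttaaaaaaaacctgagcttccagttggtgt
In Igtp and Irgm2, which are neighbours on chromosome 11, the same letters GAAACTGAAA begin 34 and 64 bases before the start. Ifit1 has 2 matches in the TTTC form along the gene, at 104 and 85 bases before the start.

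Bright markers of macrophages, endothelium and B cells were nearly all lower with BI, and those of other cell types were mixed or few. All 16 bright Kupffer cell and macrophage markers were lower, with a median of -0.30, and 3 were apart below (18.8%). Lyz2, lysozyme, measured 11.04, 11.52 and 11.31 with insulin and 10.83, 10.91 and 10.63 with BI, a difference of -0.50 ± 0.19. Cd68, a lysosomal protein of macrophages, measured 8.32, 8.55 and 8.45 against 8.23, 7.84 and 7.49, a difference of -0.58 ± 0.30. The bright members ran from -1.43 to -0.05. Clec4f (-0.18), Vsig4 (-0.10) and Csf1r (-0.05), picked after values were seen, differed less than the median and overlapped. Over all 20 markers, of which 1 was higher, the mean level ran from 9.29 to 9.66 with insulin and from 8.83 to 9.42 with BI. BI replicate 1, high for the interferon genes, was also the highest BI array here, and without it the median was -0.51. The median was -0.15 without BI replicate 3 and -0.46 without insulin replicate 1.

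MHC class II genes, by which macrophages, dendritic cells and B cells present antigen, were lower in 6 of 6 cases with a median of -0.46, and 3 were apart below. H2-Aa measured 11.02, 10.96 and 11.81 with insulin and 10.58, 10.48 and 10.94 with BI, a difference of -0.59 ± 0.26. Cd74, the invariant chain, measured 8.08, 8.28 and 8.68 against 7.58, 7.99 and 8.07, a difference of -0.47 ± 0.22, and H2-Ab1 was the other. The scores did not overlap, at 0.14, 0.16 and 0.76 with insulin and -0.10, -0.25 and -0.03 with BI. The untreated scores were -0.36, 0.01 and -0.31, below the insulin scores as well. Without insulin replicate 3 the median was -0.29. Bright B and plasma cell markers were lower in 5 of 5 cases (median -0.35), with Ighm at -0.35 ± 0.24 and Jchain at -0.55 ± 0.38. Their median was -0.23 without insulin replicate 3. Of all 11 such markers measured, 2 were higher with BI. The mean level of the 11 ran from 6.98 to 7.18 with insulin and from 6.43 to 6.97 with BI, so the groups nearly met.

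Of the endothelial markers 17 of 18 were lower with BI, with a median of -0.29 and 4 apart below (22.2%). Clec4g, a lectin of sinusoidal endothelium, measured 12.11, 12.22 and 11.90 with insulin and 11.82, 11.55 and 11.22 with BI, a difference of -0.55 ± 0.24. Tek, the angiopoietin receptor, measured 8.61, 8.34 and 8.59 against 8.08, 8.09 and 8.14, a difference of -0.41 ± 0.19. Lyve1 and Cdh5 were the other 2 below. The mean level of the 20 endothelial markers ran from 8.39 to 8.82 with insulin and from 8.13 to 8.49 with BI. The scores overlapped at insulin replicate 3 (-0.09), and the median was -0.14 without insulin replicate 1. Stellate cell and matrix genes were mixed, 7 of 17 higher with a median of -0.17 that was 0.01 without BI replicate 1, and Ccn2 (-0.64 ± 0.28), Col4a1 (-0.47 ± 0.23) and Vim (-0.55) were apart below. In bulk tissue, fewer cells of a type and less RNA per cell cannot be told apart. No marker of these cell types was at 0 on any array. The part of these cell types in the interferon, MHC class II and cytokine differences was not tested. Neutrophil markers (4 bright, median -0.16, and 0.26 without insulin replicate 3) and erythroid markers (3 bright, 0.02) had members on both sides, and the 2 bright cholangiocyte markers were at 0.05 and 0.32. T and NK cell, pancreas acinar, adipose and muscle markers had 1 bright member each, so they give little on these cells.

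Cytokine, chemokine and NF-kB genes were lower in 13 of 16 cases, with a median of -0.25. It was -0.41 without insulin replicate 1 and -0.20 without BI replicate 3. The list scores overlapped, at -0.19, 0.20 and 0.42 with insulin and 0.15, -0.11 and -0.56 with BI. Cxcl9, a chemokine induced by interferon gamma, measured 9.29, 9.59 and 9.07 with insulin and 9.02, 7.85 and 7.44 with BI, a difference of -1.21 ± 0.45, and was the 1 member apart (6.25%). Icam1, an adhesion molecule, differed by -0.31 ± 0.20. Acute phase proteins, made by hepatocytes during inflammation, had 15 of 22 higher and a median of 0.05. That sign became -0.01 under quantile normalization. Lcn2, among them, differed by 0.27 ± 0.39. Cell cycle and replication genes were lower in 10 of 13 cases, with a median of -0.20 and 3 apart below (23.1%). Mcm3, part of the replicative helicase, measured 8.91, 8.56 and 8.48 with insulin and 8.21, 8.12 and 7.99 with BI, a difference of -0.54 ± 0.25. The cyclin Ccne1 differed by -0.47 ± 0.28 and Pcna, the sliding clamp, by -0.16. Their scores did not overlap, at 0.14, 0.20 and 0.07 against -0.10, -0.12 and -0.05. The median was -0.13 without insulin replicate 2.

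**Figure D4:**
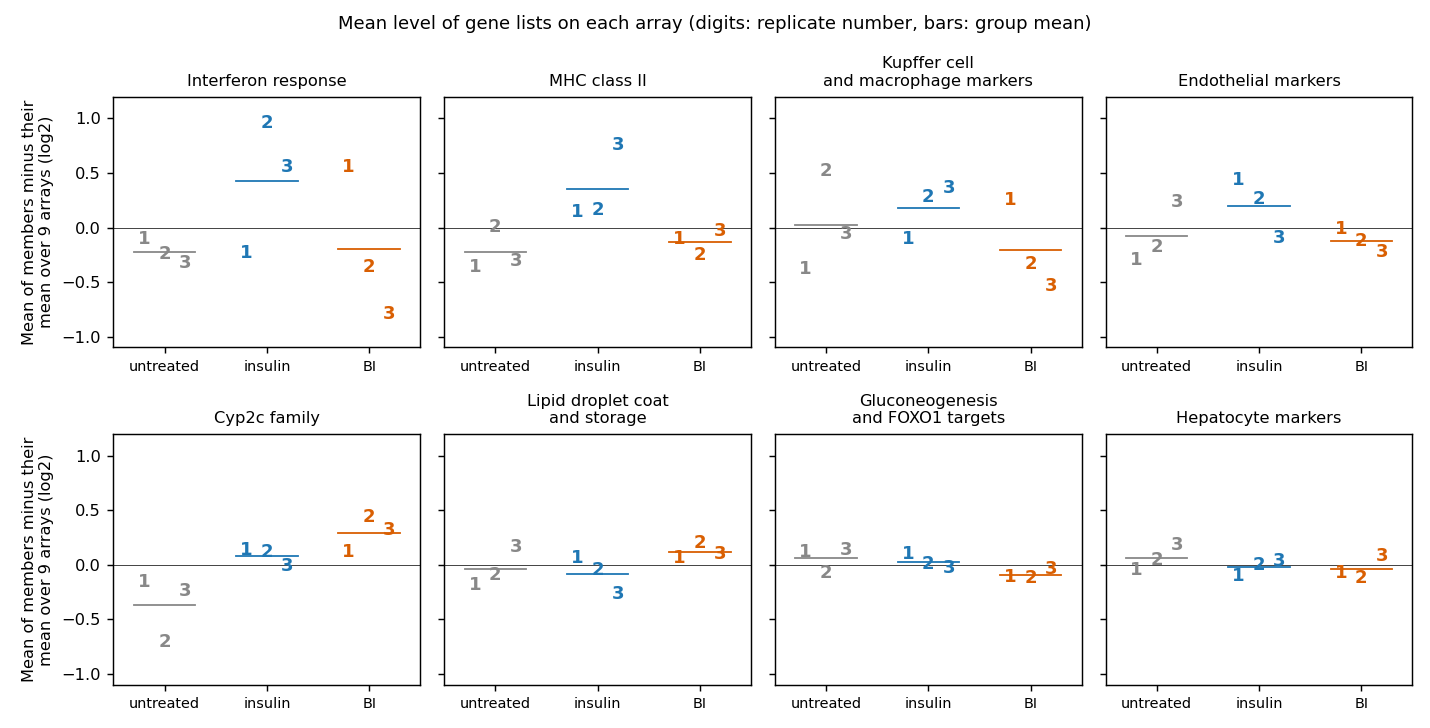
Score of 8 gene lists on each array (vertical axis, log2, mean of the bright members after subtracting each member's mean over the 9 arrays), with digits for the replicate number and bars for the group means. The interferon and macrophage panels show insulin replicate 1 below and BI replicate 1 above the other arrays of their groups, while the MHC class II, lipid droplet and gluconeogenesis panels have no overlap between insulin and BI, by a narrow gap in the last 2.

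Further groups had medians between -0.15 and 0.13. Hepatocyte markers had a median of 0.02 (7 of 12 higher) and hepatocyte transcription factors 0.00 (12 of 22), with Foxa3 apart below at -0.66 ± 0.23. Its arrays measured 11.79, 11.44 and 11.14 with insulin and 10.60, 10.97 and 10.81 with BI. Genes of zonation, the division of labour along the lobule, had 16 of 24 higher (median 0.13), and the growth hormone axis 14 of 19 (median 0.12), with Moxd1 at -0.60 ± 0.22 and Igfals at 0.33 ± 0.23. The zonation median was 0.06 without insulin replicate 2, and the growth hormone median 0.01 without BI replicate 2, with 10 of 19 higher. The hepatokine Enho, a secreted regulator of lipid metabolism, measured 8.76, 7.90 and 9.02 with insulin and 7.90, 7.69 and 7.11 with BI, a difference of -0.99 ± 0.35 with BI replicate 1 level with insulin replicate 2. Clock output genes had 8 of 23 higher and a median of -0.15, which ran from -0.38 to 0.02 as single arrays were left out, and the core clock 5 of 12 with a median of -0.06. The core clock median was 0.04 with 8 of 12 higher without BI replicate 1, and 0.08 with probe sets averaged. In the core clock Cry1 differed by 0.79 ± 0.42 and Per1 by -0.92 ± 0.67, both with overlap. The tissue's hour of sampling was not given in the sources used here.

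Of the enzymes that modify histones 19 of 43 were higher and the median was -0.01, with 1 apart above and 5 below (11.6%). Hdac1 measured 9.97, 9.90 and 9.98 with insulin and 9.87, 9.68 and 9.56 with BI, a difference of -0.25 ± 0.15, and the methyltransferase Prmt1 likewise differed by -0.25. DNA methylation genes (median 0.06), the proteasome (0.01), oxidative phosphorylation (-0.00), splicing regulators (-0.03), sirtuins and NAD synthesis (-0.03) and the autophagy and lysosome group (0.03) lay close to the median of all bright genes, -0.02. So did amino acid breakdown (0.04), where Got1 and Otc (0.22) were named, and amino acid transporters (-0.03), where Slc38a2 measured 12.26, 11.81 and 12.07 with insulin and 11.67, 11.65 and 11.61 with BI, a difference of -0.40 ± 0.18. Coagulation and complement genes had 23 of 31 higher with a median of 0.05, against 15 of 31 and -0.002 without BI replicate 2.

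**Figure D5:**
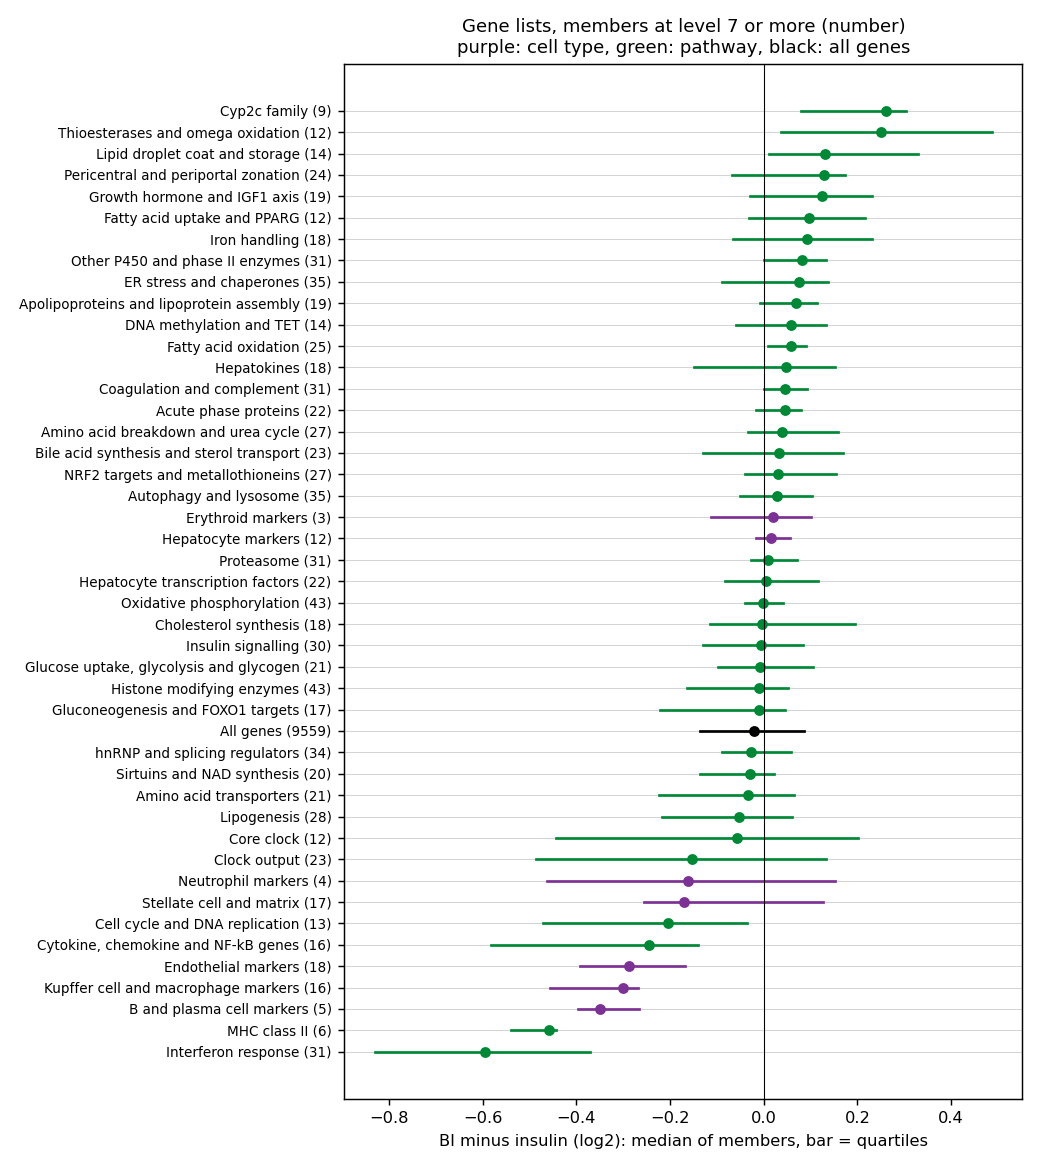
Median log2 difference of BI minus insulin over the bright members of each gene list with at least 3 of them (horizontal axis, bars from the first to the last quartile), with the number of members in brackets, pathways in green, cell types in purple and all 9559 bright genes in black. Cyp2c enzymes (0.26) are at the top and interferon-response genes (-0.60) at the bottom, and most lists lie close to the black point.

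Below level 7 stood the probe sets of smallest p in the whole comparison, singled out here once their values were known and not by the naming rule. All 12 of smallest p had a mean under 7. Slc6a14, an amino acid transporter, measured 0.00, 1.13 and 0.00 with insulin, at or near the floor of the scale, and 4.10, 4.39 and 3.95 with BI, a difference of 3.77 ± 0.32 (limma adjusted p 0.0643). Its second probe set overlapped, with a difference of 0.58 (-1.59 to 2.74). Ano4, of the anoctamin family, measured 4.29, 4.10 and 4.68 with insulin and 0.81, 1.11 and 1.45 with BI, a difference of -3.23 ± 0.26. A probe set of Hnrnpl, a splicing regulator, measured 6.81, 6.62 and 6.87 with insulin and 4.26, 4.54 and 4.17 with BI (-2.44 ± 0.23). The bright probe set of Hnrnpl, at a mean of 10.51, differed by -0.12 (-0.55 to 0.31). Cad and Cdc40 likewise differed by -3.71 and -3.46 on a dim probe set and by 0.07 and -0.03 on a bright one. Phf8, a histone demethylase, differed by -3.74 on its dim probe set, by -0.44 ± 0.28 with overlapping arrays on a bright one and by 0.34 on another dim one.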

How the data were processed

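The authors deposited one log2 signal for each probe set of an Affymetrix array. How probes were summarized was not given in the sources used here. Each array had a floor of 0, and the trimmed mean of its linear signal was 500.004, so the values were used as already scaled. From 45101 probe sets 64 controls were removed. Symbols came from the platform annotation and were updated through RefSeq: 34945 probe sets had 1 symbol, 932 several and 9160 none here. The brightest probe set stood for each of 18193 genes.

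All 9 arrays entered one limma 3.58.1 fit (R 4.3.3, lmFit and eBayes, 6 residual degrees of freedom) with group as the only factor. In the main fit eBayes drew all variances toward a single value, without a trend over level. The contrast BI minus insulin was two-sided, with Benjamini-Hochberg adjustment over 45037 probe sets and a threshold of 0.05. The code was tested on simulated data. The number of arrays limits the precision, and no detection call was used.

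Named genes were the 12 of smallest p in each direction among bright probe sets with 1 symbol and arrays that did not overlap. Clones and predicted genes were left out. The rule added 2 members of each list, not all of which are printed. The comparison, the lists and the rules were chosen with earlier results of these data known. The replicate numbers were checked for pairing: same-numbered BI and insulin arrays correlated at -0.18, -0.12 and -0.25 in their deviations, so they were not treated as pairs.

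The alternatives were equal array medians, quantile normalization, a filter at level 7, a variance trend with robust fitting, that filter with that trend, only the 6 arrays compared, the replicate number as a block, array weights, a floor at 6, averaging every probe set of a gene, an adjusted p of 0.1, and leaving out each array in turn.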

Additional observations from a re-analysis of the deposited data

How the results depend on the processing

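The count of probe sets past the threshold was 0 under each alternative except these. It was 3 at an adjusted p of 0.1, and it ran from 0 to 1 as single arrays were left out. The 1 was the dim Cfap20dc (3.71 ± 0.21, limma adjusted p 0.0467) without insulin replicate 1 and the dim Slc6a14 (4.15 ± 0.20, adjusted p 0.0162) without insulin replicate 2. Among bright probe sets, 241 had an unadjusted limma p under 0.05 in the fit of all probe sets, against 678 when only bright ones were fitted and 623 when a variance trend with robust fitting was added. With the replicate block the count was 0 and the smallest limma adjusted p was 0.513. The smallest adjusted p lay between 0.0533 (quantile normalization) and 1.00 (filter at level 7) in the settings that kept all arrays. Over 200 probe sets and all settings, 2968 differences were recomputed and 2964 kept their direction and their side of the threshold. The sign turned for 3 that had no call, as 1 array was left out. Zap70 (-0.07 with all arrays) lay between -0.18 and 0.14, with 0.14 without BI replicate 1. Tfrc (-0.25) lay between -0.61 and 0.029, with 0.029 without BI replicate 1. Ndufv1 (0.16) lay between -0.012 and 0.28, with -0.012 without BI replicate 3. The cause was not tested. With a floor at 6, 8 probe sets had no value. Of 768 recomputed list medians 27 moved by more than 1 SD of the list score. Signal near the floor limits what dim probe sets can show, since there the 95% interval reached a median of 1.69 to either side of the difference.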
